A study of Mus musculus with 16 samples.

Results

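The 9 genes described here, Fos, Fosb, Fosl2, Jun, Junb, Jund, Batf, Batf3 and Atf3, encode transcription factors of the activator protein 1 (AP-1) group. They were taken by gene name from a table of 56748 mouse genes, and no measured value enters that rule. The names themselves were chosen with earlier results of these data known. RNA was sequenced from splenic memory CD4+ T cells (Tmem), sorted as CD4+ cells with low or no CD25, no CD62L and high CD44. Cells came from 4 groups of 4 samples, each group being the KO or WT of 1 of 2 mouse lines. In the HP1α line a floxed Hp1a allele had been excised with CMV-cre, which acts in all tissues, and heterozygotes were intercrossed to give Hp1a-/- (KO) and Hp1a+/+ (WT) littermates. In the HP1γ line both genotypes were homozygous for a floxed Hp1g allele and only the KO carried the Cd4-cre transgene, which acts in T cells, so that effects of Cre and of the missing protein cannot be told apart. Mice were sex-matched, and the paper reports males for its sequencing work. It gives a mixed genetic background for these lines, and an age range for all experiments but no age by sample. The mice of both lines had received no treatment in this experiment as the methods describe it. HP1α and HP1γ, the products of Cbx5 and Cbx3, bind methylated histone H3 in heterochromatin, and the comparisons ask what their loss does to gene expression in memory cells and whether the WT cells of the lines differ.

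AP-1 is a dimer of basic leucine zipper (bZIP) proteins. Jun proteins can pair with themselves or with Fos proteins, whereas Fos proteins need a partner. Batf, Batf3 and Atf3 also pair with Jun proteins, and Batf-Jun dimers bind DNA together with Irf4 in T cells. T cell receptor and stress signals act through MAP kinases to induce the Fos and Jun genes within minutes, and AP-1 binds with NFAT at cytokine genes.

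All 9 genes are protein-coding in the GENCODE annotation of GRCm39, the build named in the submitters' processing notes. Fos lies at chr12:85520658-85524047 on the plus strand and Batf at chr12:85733423-85755861, 209 kb away, with the AP-1 gene Jdp2 between them. Batf3 at chr1:190830044-190841142 and Atf3 at chr1:190902493-190950241 are 61.4 kb apart and on opposite strands. Jun at chr4:94937271-94940459, Junb at chr8:85701113-85705359 and Jund at chr8:71151599-71153265 each consist of 1 exon. Fosb lies at chr7:19036621-19043976 and Fosl2 at chr5:32292707-32315186, each with 4 exons in the canonical transcript. The antisense gene Junos is annotated beside Jun. The library kit marks strand, but whether the counting used it is not given in the sources used here.

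The 300 bases upstream of the canonical start are shown for 5 members, the 4 whose level differed between the lines in at least one genotype (Fos, Jun, Fosl2 and Atf3) and the 1 with a full CRE (Jund). They were read 5′ to 3′ on the strand of the gene from GRCm39, at chr12:85520358-85520657 for Fos, chr4:94940460-94940759 for Jun, chr8:71151299-71151598 for Jund, chr5:32292407-32292706 for Fosl2 and chr1:190915538-190915837 for Atf3. Capitals mark matches to CRE-type letters: the CRE (TGACGTCA), its first bases (TGACG, here called the CRE core) and the Jun-type site (TGACATCA).
Fos: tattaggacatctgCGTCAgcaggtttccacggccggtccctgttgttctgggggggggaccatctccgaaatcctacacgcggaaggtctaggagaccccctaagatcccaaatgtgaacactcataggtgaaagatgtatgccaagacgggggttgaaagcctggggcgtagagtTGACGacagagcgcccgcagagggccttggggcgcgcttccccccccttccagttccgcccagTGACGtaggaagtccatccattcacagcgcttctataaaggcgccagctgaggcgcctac
Jun: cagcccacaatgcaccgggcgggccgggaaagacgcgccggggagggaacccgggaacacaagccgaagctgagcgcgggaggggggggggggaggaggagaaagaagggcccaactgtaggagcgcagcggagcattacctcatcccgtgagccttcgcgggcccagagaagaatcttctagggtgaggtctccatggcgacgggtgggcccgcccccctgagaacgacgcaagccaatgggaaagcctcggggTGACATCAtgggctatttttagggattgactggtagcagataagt
Jund: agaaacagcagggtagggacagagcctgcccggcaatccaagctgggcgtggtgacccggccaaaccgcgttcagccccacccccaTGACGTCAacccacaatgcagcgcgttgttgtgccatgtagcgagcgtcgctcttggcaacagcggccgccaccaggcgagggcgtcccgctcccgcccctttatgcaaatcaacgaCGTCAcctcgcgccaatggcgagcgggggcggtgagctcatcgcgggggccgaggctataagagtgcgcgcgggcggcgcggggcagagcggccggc
Fosl2: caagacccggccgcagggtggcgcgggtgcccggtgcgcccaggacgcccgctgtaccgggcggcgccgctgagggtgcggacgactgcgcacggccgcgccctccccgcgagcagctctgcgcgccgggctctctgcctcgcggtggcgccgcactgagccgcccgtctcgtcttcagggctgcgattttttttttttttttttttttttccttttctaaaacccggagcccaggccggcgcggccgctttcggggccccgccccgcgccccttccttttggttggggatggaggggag
Atf3: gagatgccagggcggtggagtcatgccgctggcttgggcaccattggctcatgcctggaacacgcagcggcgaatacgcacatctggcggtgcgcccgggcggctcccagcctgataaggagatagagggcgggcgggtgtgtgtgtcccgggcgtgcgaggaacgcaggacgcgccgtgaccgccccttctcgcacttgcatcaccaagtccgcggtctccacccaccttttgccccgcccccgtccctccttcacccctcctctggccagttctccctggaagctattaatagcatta
Searches covered both strands, and each full CRE also holds the CRE core. The CRE core was present upstream of 5 of the 9 members and of 19.9% of 21770 protein-coding genes. In Fos it starts 286, 123 and 60 bases upstream of the start. Jund holds the full CRE 214 bases upstream, found in 1.75% of genes, and Jun the Jun-type site 45 bases upstream, found in 2.88%. Fosb, not printed, holds a CArG box, the letters bound by SRF, 266 bases upstream (1.69% of genes). The AP-1 site itself (TGANTCA) was in 7.38% of genes and in 0 of the 9 windows. The Fosl2 and Atf3 windows held none of the 5 motifs. These are matches of letters within the windows only.

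The libraries held 26694045 to 40199637 estimated counts, and AP-1 members took 0.747% to 1.00% of them. The sort was checked by its markers. Cd4 stood at 1020 to 1370 normalized counts scaled to library size (CPM) and Cd3e at 260 to 359. Cd44 stood at 259 to 300 CPM in the HP1α line and at 332 to 377 in the HP1γ line, without overlap. By contrast, Cd79a of B cells stood at 1.25 to 8.18 CPM and Xcr1 of dendritic cells at 0.122 to 0.563. The targeted genes behaved differently in the lines. Cbx3 stood at 50.3, 46.3, 45.9 and 47.5 CPM in HP1γ KO replicates 1 to 4 and at 92.5, 90.2, 73.4 and 82.0 in HP1γ WT, a log2 fold change of -0.82 (SE 0.079, adjusted p = 0.0015, edgeR). Cbx5 stood at 28.7, 27.7, 23.1 and 29.0 CPM in HP1α KO and at 37.8, 54.1, 35.7 and 33.8 in HP1α WT. The groups did not overlap, and the log2 fold change of -0.58 (SE 0.145) did not pass the test over all genes (adjusted p = 0.946). Counts assigned to the targeted gene therefore remained in both KO groups, and counts were given per gene, not per exon. Whether they come from the targeted alleles was not tested. At the protein level, in naive CD4+ T cells, the paper reports HP1α as fully absent and HP1γ as almost fully deleted in the respective KO. The first principal component held 57.3% of the variance and separated the lines, from -21.9 to -8.10 in the HP1α line and from 5.14 to 26.9 in the HP1γ line. In each of the 4 groups, the replicates numbered 1 and 2 lay farther from the other line than those numbered 3 and 4. The labels name no batch for these numbers, and values between the lines are given by number below.

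Junb was by far the most abundant member. On the TPM scale, which corrects for transcript length, its level was 4250 ± 554 (SD, n = 16), the 20th highest mean among 15776 genes kept. Junb can oppose Jun in some cell types, and Jund is expressed in resting cells of many tissues. Jund followed at 1670 ± 170 TPM, below Junb in 16 of 16 samples. Fosb (441 ± 133 TPM) and Fos (416 ± 96.7 TPM), both immediate early genes, could not be ordered, with Fosb above Fos in 9 of 16 samples, and Fos lay above Jun (234 ± 53.2 TPM) in 16 of 16. Jun was above Fosl2 (197 ± 85.2 TPM) in 10 of 16 samples, and their order differed between the lines. Jun stood at 203 to 316 TPM in the HP1α line, above every Fosl2 value there (79.0 to 175). In the HP1γ line the means of Jun were 198 (WT) and 200 (KO) TPM, below 260 and 283 for Fosl2. Fosl2 encodes Fra-2, which lacks the strong activation domain of Fos. Batf (97.8 ± 8.07 TPM), which binds with Irf4, lay below Fosl2 in 12 of 16 samples and above Atf3 (90.2 ± 49.6 TPM), a stress-induced factor, in 9 of 16. Batf3, needed by cross-presenting dendritic cells, was at the edge of detection with 2 to 29 counts per library (0.747 ± 0.514 TPM), where 3 counts correspond to 0.0751 to 0.114 CPM. Over all samples the order thus ran Junb, Jund, then Fosb with Fos, Jun with Fosl2, Batf with Atf3, and Batf3. Within the pairs Jun with Fosl2 and Batf with Atf3, the order depended on the line.

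The members also differed in their spread. Within groups, the SD of log2 CPM was 0.51 for Atf3, 0.41 for Fosl2 and 0.36 for Fosb, which placed them at the 99.1, 98.4 and 97.5 percentile of the 8403 genes with a mean of at least 10 CPM (median SD 0.13). Fos (0.26) and Jun (0.25) stood at the 93.0 and 92.4 percentile, and Junb (0.19) and Jund (0.15) at 80.2 and 65.0. Batf, with an SD of 0.12, lay below the median gene. Over all samples, so with differences between groups included, the ratio of the highest to the lowest TPM was 7.67 for Atf3, 3.96 for Fosl2 and 1.36 for Batf. Atf3, Fosl2 and Fosb were thus among the most variable of the abundant genes within groups, while Junb, Jund and Batf were closer to the median gene.

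**Figure D1:**
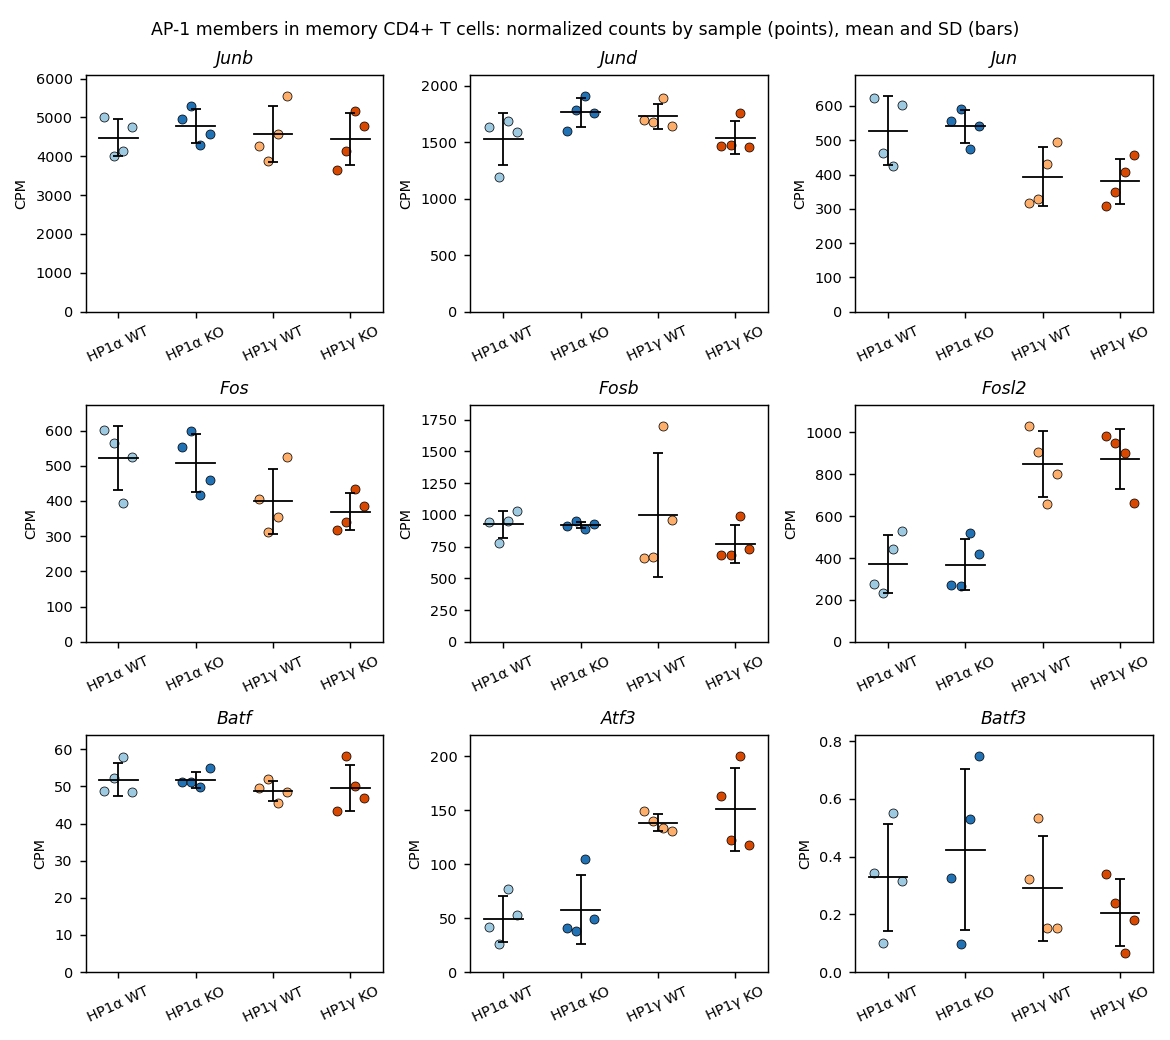
Normalized counts (CPM, linear axis from 0) of the 9 members in every sample, by group. Points are samples in the order of their replicate number, bars the mean and SD (n = 4). Fosl2 and Atf3 of the HP1α line lie below those of the HP1γ line with no overlap, and KO and WT of each line overlap for every member.

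Loss of HP1α was not accompanied by a detectable change of any AP-1 member. None of the 9 passed the edgeR quasi-likelihood test, in which 0 of 14881 genes were called (0%, adjusted p under 0.05 over all genes), and 0 members had an unadjusted p under 0.05, against 4.27% of all genes. DESeq2 and limma also called 0 members. Bulk values such as these cannot tell fewer expressing cells from less RNA per cell. Jund, the member nearest to the threshold, stood at 1595, 1787, 1907 and 1760 CPM in HP1α KO and at 1634, 1193, 1690 and 1591 in HP1α WT. The groups overlapped, and only WT replicate 2 lay apart from the rest. The log2 fold change was 0.21 (SE 0.103, unadjusted p = 0.0726, adjusted p = 0.946). Batf was the most stable, at 51.1, 51.3, 49.9 and 54.9 CPM in HP1α KO against 48.7, 52.2, 58.1 and 48.5 in WT, and its log2 fold change was 0.00 (SE 0.071). Junb had a log2 fold change of 0.09 (SE 0.089) and Fosb of -0.01 (SE 0.078). Differences of Fosl2 (-0.01, SE 0.283), Atf3 (0.24, SE 0.370) and Batf3 (0.42, SE 0.596) were measured less precisely. Across the 9 members the median log2 fold change was 0.04, beside 0.00 over all genes, and KO and WT overlapped for 9 of 9 (2.99% of genes did not overlap).

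Loss of HP1γ gave the same count. Of the 9 members 8 had enough counts to be tested, Batf3 not, and 0 were called by edgeR, DESeq2 or limma (0.327% of all genes were called by edgeR). At an unadjusted p under 0.05 the count was also 0 (11.9% of all genes). Jund stood at 1467, 1474, 1758 and 1457 CPM in HP1γ KO and at 1699, 1675, 1886 and 1646 in HP1γ WT. Each KO sample lay below the WT sample of the same number, but the groups overlapped because KO replicate 3 was high. The log2 fold change was -0.16 (SE 0.078, unadjusted p = 0.0684, adjusted p = 0.455). Fosb stood at 682, 681, 994 and 732 CPM in HP1γ KO and at 659, 670, 1698 and 960 in WT. WT replicate 3 was the highest of all 16 samples, and the log2 fold change of -0.36 (SE 0.280) had an adjusted p of 0.629. The other 6 tested members lay between -0.10 (Fos, SE 0.152) and 0.13 (Atf3, SE 0.148). The median was -0.04, beside 0.00 over all genes, and KO and WT overlapped for 9 of 9 members (6.92% of genes did not overlap).

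The KO effects of the lines were compared directly, as an interaction in 1 fit of all 16 samples. No member was called (0 of 9, edgeR, and 0.0507% of all genes), DESeq2 also called 0, and 1 member had an unadjusted p under 0.05, against 9.58% of all genes. That member was Jund, the gene with opposite signs above, whose KO effect was 0.37 higher on the log2 scale in the HP1α line than in the HP1γ line (SE 0.136, unadjusted p = 0.0145, adjusted p = 0.44). In pairs of the same number Jund was higher in KO in 3 of 4 HP1α pairs and in 0 of 4 HP1γ pairs. The difference did not hold up against the number of genes tested.

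**Figure D2:**
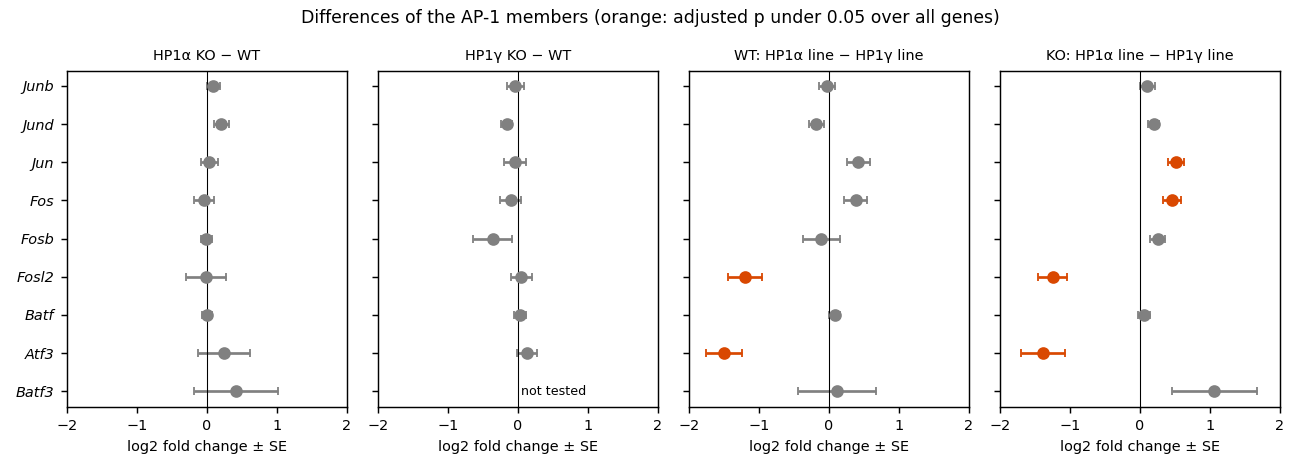
Log2 fold change (x axis) with its SE for the 9 members in 4 comparisons (edgeR). Orange points have an adjusted p under 0.05 over all genes. Neither KO comparison has an orange point, while Fosl2 and Atf3 lie between -1.50 and -1.19 in both comparisons of the lines.

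Only 2 of the members passed the test between the WT groups of the lines. In WT cells of the HP1α line, Fosl2 and Atf3 were lower than in WT cells of the HP1γ line, whereas the other 7 members did not pass the test. Fosl2 stood at 278, 232, 446 and 529 CPM in HP1α WT and at 1029, 908, 658 and 803 in HP1γ WT. The groups did not overlap, and the lowest value was WT replicate 2 of the HP1α line. The log2 fold change was -1.19 (SE 0.243, adjusted p = 0.0141). Atf3 stood at 41.3, 25.9, 76.6 and 52.5 CPM in HP1α WT and at 150, 140, 134 and 131 in HP1γ WT. Again the groups did not overlap, and the HP1γ samples lay close together. The log2 fold change was -1.50 (SE 0.255, adjusted p = 0.00706). In this comparison 12.8% of 14804 genes were called, 8.25% as lower and 4.55% as higher in the HP1α line, against 2 of the 9 members lower and 0 higher. The groups did not overlap for 2 of the 9 members and for 18.7% of genes. Exact permutation tests of Fosl2 and of Atf3 each gave 0.0286, the smallest p that 4 against 4 samples allow (70 splits, two-sided). These called members rest on the samples in part. Without HP1α WT replicate 1 the adjusted p of Fosl2 was 0.0511, as it also was with the replicate number as a block (log2 fold change -1.26), and without HP1γ WT replicate 4 Fos and Jun were also called (adjusted p = 0.0351 and 0.0451).

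The estimates for Fos and Jun had the opposite sign. Fos stood at 602, 565, 394 and 526 CPM in HP1α WT and at 404, 312, 354 and 524 in HP1γ WT, overlapping groups with a log2 fold change of 0.39 (SE 0.162, adjusted p = 0.14). Jun stood at 624, 462, 424 and 604 CPM against 318, 329, 431 and 496, with a log2 fold change of 0.42 (SE 0.165, adjusted p = 0.115). Neither was called in WT cells. In KO cells, compared between the lines after the WT result had been seen, both were. Jun stood at 558, 590, 475 and 542 CPM in HP1α KO and at 307, 349, 406 and 457 in HP1γ KO, without overlap (log2 fold change 0.51, SE 0.115, adjusted p = 0.00861). Fos stood at 552, 598, 418 and 460 CPM against 318, 339, 435 and 386, with overlap (0.46, SE 0.126, adjusted p = 0.0195). Leaving out any 1 of replicates 1 and 2 of either KO group took the adjusted p of Fos to between 0.0559 and 0.059, and a replicate block took it to 0.0601.

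Fosl2 and Atf3 differed between the KO groups as between the WT groups. Fosl2 stood at 271, 266, 518 and 419 CPM in HP1α KO against 981, 949, 902 and 665 in HP1γ KO (log2 fold change -1.25, SE 0.213, adjusted p = 0.00303). Atf3 stood at 40.4, 37.6, 105 and 49.0 CPM against 163, 123, 200 and 118 (-1.38, SE 0.312, adjusted p = 0.00878). Neither gene's groups overlapped, although Atf3 in HP1α KO replicate 3 came close to the lowest HP1γ sample. Between KO groups 32.8% of 15020 genes were called, 16.8% as lower and 16% as higher in the HP1α line, against 2 of the 9 members lower and 2 higher, and groups did not overlap for 3 of 9 members and 31.2% of genes. The members' shares were near those of all genes. Fosl2 and Atf3 thus differed between the lines in both genotypes, and the part of Cre in this was not tested. The targeted locus and the breeding cannot be told apart from the line.

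The size of these differences depended on the replicate number. Between WT samples of the same number, Fosl2 was 3.70, 3.91, 1.48 and 1.52 times as high in the HP1γ line for numbers 1 to 4, and between KO samples 3.62, 3.57, 1.74 and 1.59 times. Atf3 was 3.62, 5.38, 1.75 and 2.49 times as high between WT samples and 4.04, 3.26, 1.91 and 2.41 times between KO samples. Both genes were thus higher in the HP1γ line at every number and in both genotypes, with the smaller ratios at numbers 3 and 4. Fos was higher in the HP1α line by 0.57 and 0.86 on the log2 scale at numbers 1 and 2 of WT, but by 0.15 and 0.00 at numbers 3 and 4. Jun showed 0.97 and 0.49 against -0.02 and 0.28. With replicates 3 and 4 alone, a split chosen after the data were seen, the WT log2 fold changes were -0.58 for Fosl2 (adjusted p = 0.153) and -1.04 for Atf3 (adjusted p = 0.102), and 26 genes were called in all. With replicates 1 and 2 alone, Fos (0.70, adjusted p = 0.017) and Jun (0.75, adjusted p = 0.0192) were called beside Fosl2 and Atf3, and 2997 genes in all. What the numbers stand for is not given in the sources used here, and its part in the line difference was not tested.

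**Figure D3:**
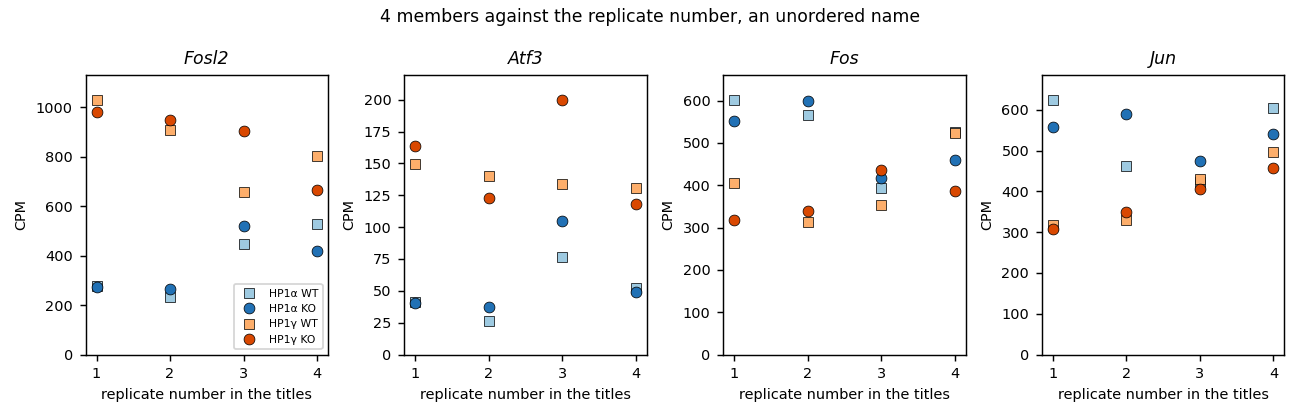
CPM (linear axis from 0) of Fosl2, Atf3, Fos and Jun against the replicate number in the titles, for KO (circles) and WT (squares) of the HP1α line (blue) and HP1γ line (orange). The ratio between the lines for Fosl2 is 3.57 to 3.91 at numbers 1 and 2 and 1.48 to 1.74 at numbers 3 and 4.

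The make-up of the Fos class, of which Fosl2 is one gene, was examined on the TPM scale. Fosl2 made up 8.05%, 8.17%, 15.7% and 15.2% of the summed Fos, Fosb and Fosl2 TPM in HP1α WT and 31.0%, 31.2%, 15.3% and 21.0% in HP1γ WT. The groups overlapped by a single sample, HP1γ WT replicate 3, in which Fosb was high. The exact permutation p was 0.0571 in WT cells, and 0.0286 in KO cells, where Fosl2 made up 8.70%, 8.34%, 17.8% and 13.3% in the HP1α line and 32.3%, 31.8%, 24.3% and 23.1% in the HP1γ line. Jun made up 4.45% ± 0.51 of the Jun class in HP1α WT and 3.19% ± 0.363 in HP1γ WT (SD, n = 4, exact permutation p = 0.0286). None of the 36 tests of class shares and sums passed adjustment for their number (adjusted exact permutation p = 0.257 at the lowest). However, 0.0286 is the smallest exact p that 4 against 4 samples allow. A test at that value could pass adjustment only if many of the 36 tests reached it. This held even for groups without overlap, such as the shares of Jun in WT cells and of Fosl2 in KO cells. The adjusted result therefore cannot decide whether these shares differed between the lines. The summed TPM of the Fos class was 1050 ± 112 in HP1α WT and 1120 ± 252 in HP1γ WT, and that of the Jun class 5920 ± 640 and 6130 ± 888. Differences of these sums were smaller than the spread between replicates.

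Genes that act with, upstream or downstream of AP-1 were followed in lists, which were chosen with earlier results of these data known. In neither line was any gene of these lists called between KO and WT. Between the WT groups, 7 of 22 tested other bZIP genes were lower in the HP1α line and 0 higher, where 8.25% of all genes were lower and 4.55% higher (median log2 fold change -0.18, beside 0.02 over all genes). They included Bach1, a repressor that competes with AP-1 for related sites (-1.02, SE 0.131, adjusted p = 0.00259), Nfil3 (-0.93, SE 0.175, adjusted p = 0.0104) and the inducible cAMP-response gene Crem (-1.18, SE 0.315, adjusted p = 0.036). Of 10 partner factors 3 were lower and 0 higher (median -0.14), against the same shares of all genes. Irf4, the partner of Batf, had the largest difference (-1.06, SE 0.168, adjusted p = 0.00569), followed by Stat3 (-0.33) and Nfatc1 (-0.30). Batf itself stood at 48.7, 52.2, 58.1 and 48.5 CPM in HP1α WT and at 49.5, 51.9, 45.5 and 48.5 in HP1γ WT, a log2 fold change of 0.08 (SE 0.079, adjusted p = 0.519).

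The counts of the next lists also stand against 8.25% of all genes lower and 4.55% higher. Upstream, 2 of 16 kinase genes were lower in the HP1α line and 1 higher. Mapk8, which encodes the Jun kinase JNK1, had a log2 fold change of -0.54 and Map2k3 of -0.80, while Mapk11 had 0.28. Of the 6 genes of SRF and its cofactors, which act on the CArG box, Mrtfa alone was called (0.37). The list of genes that restrain MAP kinases or AP-1 had 6 of 16 lower and 0 higher (median -0.19). Spry1 (-0.63), Spry2 (-1.05) and Spred1 (-0.55) limit Ras signalling, and Dusp4 (-1.02), Dusp5 (-0.65) and Dusp10 (-0.54) are MAP kinase phosphatases. Other immediate early genes had 4 of 18 lower, Klf4 (-0.72), Egr3 (-0.40), Nr4a2 (-0.82) and Nr4a3 (-1.37), and 0 higher. Known AP-1 target genes of CD4 T cells had 6 of 19 lower and 1 higher. Il10 (-1.26, SE 0.198, adjusted p = 0.00527), Fasl (-0.82, SE 0.090, adjusted p = 0.00139), Il13 (-1.28), Rora (-0.92), Prdm1 (-0.48) and Icos (-0.48) were lower, and Cd40lg was higher (0.45, SE 0.108, adjusted p = 0.0265). The heat shock genes Hspa1a (2.28) and Hspa1b (2.48) were higher, as 2 of 8 on their list, and Hspa1a ranged from 1.34 to 178 CPM over the samples. Between the KO groups 16.8% of all genes were lower and 16% higher. There the counts were 9 lower and 2 higher of 22 bZIP genes, 7 and 2 of 16 restraint genes, and 5 and 1 of 19 targets. Partner factors had 3 lower and 1 higher of 10, other immediate early genes 4 and 3 of 18, and kinase genes 3 and 5 of 16. Genes of SRF and its cofactors had 1 lower and 2 higher of 6, and heat shock genes 1 and 0 of 8.

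Markers of CD4 T cells (11 genes) had 1 lower in the HP1α line and 0 higher between the WT groups (8.25% and 4.55% of all genes). Between the KO groups 1 was lower and 2 were higher (16.8% and 16% of all genes). Markers of other cells were compared in the same way. Markers of regulatory T cells (7 genes) summed to 671 to 909 CPM in HP1α WT and 728 to 1160 in HP1γ WT, with 0 of 7 called, and to 642 to 884 and 825 to 1290 in the KO groups, with 2 of 7 lower in the HP1α line. Dendritic cell markers (8 genes) summed to 64.0 to 87.5 CPM and 70.6 to 169 in the WT groups and to 71.1 to 127 and 105 to 344 in the KO groups, with 0 of 7 tested called in WT and 2 of 8 lower in the HP1α line in KO. Erythroid markers (6 genes) summed to 35.4 to 187 CPM in HP1α KO and 82.0 to 1210 in HP1γ KO, and all 5 tested were lower in the HP1α line. In WT cells 0 of 5 were called. Markers of CD8 T and NK cells (7 genes) summed to 100 to 136 CPM in HP1α WT and 105 to 139 in HP1γ WT, and to 105 to 154 and 85.3 to 119 in the KO groups. Of 6 tested, Eomes was lower in the HP1α line between the WT groups (-0.68), and Klrk1 was higher between the KO groups (0.81). Klrk1 was also the only gene of the marker lists called between KO and WT, lower in HP1γ KO (-0.58, SE 0.097, adjusted p = 0.0385). Naive T cell markers (6 genes) summed to 1670 to 1970 CPM over the 16 samples, with 0 of 6 called between the WT groups and 1 higher in the HP1α line between the KO groups. B cell markers (8 genes) summed to 57.5 to 78.3 CPM in HP1α KO and 51.3 to 68.4 in HP1α WT. In HP1γ KO they summed to 61.5 to 66.0 CPM, without overlap with 44.4 to 53.7 in HP1γ WT. Of 8 tested, 1 was higher in the HP1α line between the KO groups, and 0 of 7 were called between the WT groups. Myeloid markers summed to 24.4 to 125 CPM over the 16 samples, with 0 called between the lines. No marker list had a gene at 3 counts or fewer in every sample of every group. The part of these cells in the differences of Fosl2, Atf3, Fos and Jun was not tested.

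Samples of one group varied together in some AP-1 genes. Deviations of log2 CPM from the group mean were correlated over 16 samples for the 36 pairs of members, and 7 pairs passed a permutation test adjusted over the 36, with 6 positive and 1 negative. Deviations within a group sum to 0, so the points are fewer than 16 free values. Jun and Junb went together most closely (r = 0.898, permutation p = 2e-05, adjusted p = 0.00072, rho = 0.865, p = 5e-05), with r = 0.915 within the HP1α line and 0.894 within the HP1γ line. Leaving out the 2 samples farthest from the median gave r = 0.887. Fos joined them, with Junb at r = 0.815 (permutation p = 0.00026, adjusted p = 0.00312, rho = 0.791, p = 0.00047) and 0.786 without 2 samples. Within the HP1α line it was 0.701 (permutation p = 0.0642) and within the HP1γ line 0.907 (permutation p = 0.00221). Fos and Jun had r = 0.705 (permutation p = 0.00281, adjusted p = 0.0169, rho = 0.679, p = 0.00449), which was 0.734 (permutation p = 0.0437) and 0.691 (permutation p = 0.0607) within the HP1α and HP1γ lines and 0.56 without 2 samples. Of these 3 pairs, only Jun with Junb had a permutation p under 0.05 within each line. The test treats the 16 deviations as exchangeable, although KO and WT samples of one number can deviate together (given below). On the 8 KO minus WT differences within numbers (replicate block), 0 of the 36 pairs passed.

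Fosl2 and Atf3 formed a separate pair. Their deviations had r = 0.789 (permutation p = 0.0002, adjusted p = 0.00312, rho = 0.824, p = 0.00018), 0.857 within the HP1α line and 0.471 within the HP1γ line, where the permutation p was 0.244, and 0.774 without 2 samples. Jund and Atf3 had r = 0.734 (permutation p = 0.00137, adjusted p = 0.00994, rho = 0.659, p = 0.00677), with 0.772 and 0.638 within the lines and 0.601 without 2 samples. Fos and Fosl2, of the same class, were not positively related (r = -0.517, permutation p = 0.0421, adjusted p = 0.138, rho = -0.60, p = 0.0156). The pairs of Batf3 rest on 2 to 29 counts per library. It had r = -0.733 with Fos (permutation p = 0.00138, adjusted p = 0.00994, rho = -0.762, p = 0.001; -0.735 and -0.749 within the lines; -0.714 without 2 samples) and 0.639 with Fosl2 (permutation p = 0.00886, adjusted p = 0.0456, rho = 0.709, p = 0.00292; 0.719 and 0.476 within the lines; 0.622 without 2 samples). Of the 8 pairs that include Batf, 0 were called, and the deviations of Batf were small.

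**Figure D4:**
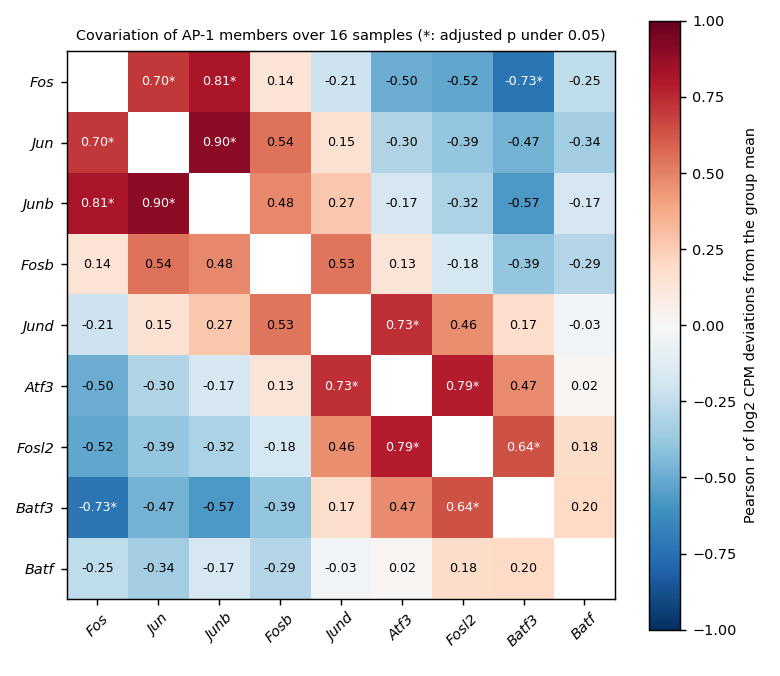
Pearson r between members of the deviations of log2 CPM from the group mean over 16 samples, with red for positive and blue for negative values. Stars mark the 7 pairs with an adjusted permutation p under 0.05. Fos, Jun and Junb form one block. Of the 3 pairs of Jund, Atf3 and Fosl2, 2 are starred, and Fosl2 with Jund is not (adjusted permutation p = 0.157). Within the HP1γ line Fosl2 with Jund had r = -0.175 (permutation p = 0.748).

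Deviations were then compared between KO and WT samples that carry one number in a line, over 8 pairs per member. None of the 9 members passed adjustment (adjusted exact permutation p = 0.0593 at the lowest, over 9 members), and 5 had an unadjusted exact p under 0.05. The r was 0.913 for Fosb (exact p = 0.00828, rho = 0.643, p = 0.0962), 0.783 for Atf3 (exact p = 0.0214, rho = 0.833, p = 0.0154) and 0.772 for Fosl2 (exact p = 0.0282, rho = 0.905, p = 0.00456). Jun had r = 0.767 (exact p = 0.033, rho = 0.762, p = 0.0368) and Batf3 0.761 (exact p = 0.0285, rho = 0.619, p = 0.115), whereas Batf had 0.00 (exact p = 0.997, rho = -0.262, p = 0.536). For Fosb the value rests on replicate 3 of the HP1γ line, high in both genotypes, and 4 of 8 pairs deviated in the same direction. For Fosl2 it was 7 of 8. Between lines, samples of the same number and genotype gave 0 of 9 members called, with r between -0.623 (Batf3; exact p = 0.105, rho = -0.714, p = 0.0576) and 0.483 (Jund; exact p = 0.203, rho = 0.619, p = 0.115).

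Genes were also ranked by how closely their deviations of log2 CPM from the group mean followed each member's over the 16 samples. Group differences were thus removed, and 9744 genes with a mean of at least 5 CPM were compared. Fosl2 was most like Nr4a3, an immediate early nuclear receptor (r = 0.982), then Tsc22d2 and Mfsd2a (both 0.97). Atf3 was most like Cdkn1a, the cell cycle inhibitor p21 (r = 0.976), then Slc25a25 (0.965) and Atg101 (0.963). Fos was most like Lcp2 (0.944), the T cell receptor adaptor SLP-76, the cytokine gene Tnf (0.936) and Jade2 (0.925). Jun was most like Camk2g (0.952), Junb like Scamp3 (0.949), Fosb like Ahnak (0.954) and Jund like Zdhhc18 (0.916). Batf was most like Mcm5 (0.864), a replication gene, and Batf3 like Gm4739 (0.93) and Cd86 (0.887), a costimulatory ligand of antigen-presenting cells. These values describe 16 libraries that share depth, line and replicate structure.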

How the data were processed

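Per the labels and methods, CD4+ cells were enriched from spleen by negative selection, sorted, and sequenced from stranded mRNA libraries. The authors processed reads with STAR and Salmon on GRCm39 and deposited tables of estimated counts (one estimated count per gene and sample) and of TPM. The treatment label, which describes transferred cells, does not match this sort and was not used.

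Counts were rounded (11.6% of values were not whole) and tested with edgeR 4.0.16 (quasi-likelihood, TMM, filterByExpr with a minimum count of 10, Benjamini-Hochberg over all genes) in R 4.3.3. Fits of each comparison used its 8 samples, and the interaction all 16. Alternatives were DESeq2 1.42.0, limma 3.58.1 on log2(TPM + 1) or log2(TPM + 0.1), other filters and scalings, 1 fit of all samples, a replicate block and leaving out each sample. Log2 CPM used a prior count of 2. Correlations and exact tests used SciPy 1.17.1 and NumPy 2.4.6 (100000 resamples or all permutations). The edgeR step was tested on simulated data. In lists, up to 5 called genes with the smallest p were to be named, and others named were chosen after their values were seen. Members and lists were chosen with earlier results of these data known. Replicates are separate samples by their titles, and the mouse behind each is not given. No 2 replicates agreed within sampling noise (smallest chi-square per gene 10.4). Intervals of depth cover counting error only.

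The replicate numbers of KO and WT were checked for pairing. Same-number correlations of deviations were 0.108, 0.216, 0.228 and 0.094 in the HP1α line and 0.109, 0.153, 0.00286 and 0.0792 in the HP1γ line. Not every pair thus exceeded 0.1. The main tests have no block, because the study states no pairing by number.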

Additional observations from a re-analysis of the deposited data

Results flagged for a closer look

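In 3 of 36 member-by-group sets of 4 samples, 1 sample stood apart by the 95% limit of Dixon's test, which chance gives in about 1 of 20 sets. Fosb was 994 CPM in HP1γ KO replicate 3, above the other 3 samples of that group. Jund was 1760 CPM in the same sample. Atf3 was 105 CPM in HP1α KO replicate 3, which also had the highest summed myeloid markers of the 16 samples, 125 CPM, and the highest heat shock transcripts, with Hspa1a at 178 CPM and Hspa1b at 580 CPM. HP1α WT replicate 3, the highest of its group for Atf3 at 76.6 CPM, was next for both, with Hspa1a at 51.5 CPM and Hspa1b at 210 CPM. The HP1γ samples, in which Atf3 was higher, had Hspa1b at 7.08 to 28.2 CPM. The part of these markers and transcripts in Atf3 was not tested.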

How the results depend on the processing

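No AP-1 member was called between KO and WT of either line, or in the interaction, under any alternative run, although signs of uncalled values changed in 36 of 161 (HP1α), 18 of 144 (HP1γ) and 23 of 224 (interaction) values. Sign changes of values that were called in no fit are counted here and not as reversals. Causes of the changes below were not tested, apart from the fewer samples in some.

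Genes called between HP1α KO and WT numbered 5 with DESeq2, 1 with no filter on low counts or with limma on either TPM scale, 10 with replicates 1 and 2 only, and 0 to 3 when 1 sample was left out. HP1γ KO and WT gave 252 with DESeq2, 31 with at least 10 counts in every sample, 28 and 32 with limma on log2(TPM + 1) and log2(TPM + 0.1), 96 with all samples in 1 fit, 5 with replicates 3 and 4 only, and 30 to 49 with 1 sample left out, against 49. The interaction, with 8 genes, gave 79 with DESeq2, 14 with no filter, 13 with the replicate block, 4 with limma on log2(TPM + 0.1), 4 with replicates 3 and 4 only, 5 with replicates 1 and 2 only, and 7 to 12 with 1 sample left out.

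Between the WT groups, 1896 genes became 577 with the replicate block, 1175 and 1210 with limma, 26 with replicates 3 and 4 only, 2997 with replicates 1 and 2 only, and 573 to 2185 with 1 sample left out. Members called numbered 1 with the block (Fosl2 adjusted p = 0.0511), 0 with replicates 3 and 4, 4 with replicates 1 and 2, and 1 to 4 with 1 sample left out, against 2. Between the KO groups, 85 genes and 0 members were called with replicates 3 and 4 only, 7 members with replicates 1 and 2 only, and 3350 to 5202 genes and 3 to 6 members with 1 sample left out. There the block took Fos to an adjusted p of 0.0601 and Jund to 0.041. The check of pairing did not meet its limit for every pair, with 5 of 8 KO and WT pairs over 0.1, and what the numbers stand for is not given in the sources used here.

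With the replicate block, over 8 KO minus WT differences, 0 of 36 pairs of members passed, and Fosl2 with Batf3 reversed to r = -0.801 (adjusted exact permutation p = 0.108). Leaving out 1 sample left 5 to 9 pairs. Same-number covariation of KO and WT gave 3 members on log2(TPM + 1) and 0 to 1 with 1 number left out. Batf3, with 2 to 29 counts, limits what can be read from its values.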
